A study of Mus musculus with 30 samples.

Results

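The livers of wild-type and Nrf2-knockout mice were compared after both had received the NRF2-inducing drug CDDO-Me. The comparison covers 10 of the 30 mRNA libraries of the study, 5 from wild-type mice (WT_CDDO-Me) and 5 from Nrf2-knockout mice (N0_CDDO-Me), with 1 library per mouse. They were chosen by the genotype and treatment in their labels, and every gene was described in both directions. All mice were males of 7 to 10 weeks on an albino C57BL/6J background and were killed 24 hours after a single oral dose of CDDO-Me at 30 µmol/kg. The vehicle, which held 10% DMSO and 10% Cremophor-EL in phosphate-buffered saline, was given alone to the 5 wild-type (WT_Vehicle) and 5 Nrf2-knockout (N0_Vehicle) mice that supply the basal comparison. The other genotype of the study, mice with the C151S allele of Keap1, enters only the fit that tests a difference between responses. Wild-type mice were bought, whereas the homozygous Nrf2-knockout mice came from a separately bred line, so that loss of Nrf2 and other differences between the lines cannot be told apart. The question addressed is which liver transcripts depend on NRF2 while the drug is acting.

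NRF2, encoded by Nfe2l2, is a transcription factor that pairs with small MAF proteins and binds antioxidant response elements in the promoters and enhancers of genes for detoxification, glutathione synthesis, and NADPH supply. KEAP1 holds NRF2 in a complex with the CUL3 ubiquitin ligase and sends it to the proteasome until its cysteines are modified. CDDO-Me (bardoxolone methyl) is a synthetic triterpenoid that modifies KEAP1 and so raises NRF2. In liver NRF2 is known for the enzymes that conjugate, reduce, and export reactive compounds.

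The wild-type libraries held 27419840 to 35323196 counts on genes and the Nrf2-knockout libraries 27785049 to 40588590. Levels are CPM (the counts of a gene scaled to the size of its library), and every list of 5 values is in the order of replicates 1 to 5. The first principal component was taken over the genes that varied most across these 10 libraries and held 59.1% of their variance. The genotypes did not overlap on it, and wild-type replicate 5 lay nearest to the Nrf2-knockout mice. Hepatocyte markers summed to between 76300 and 101000 CPM in wild-type and between 72900 and 111000 CPM in Nrf2-knockout mice. In the marker lists of 11 other cell types, wild-type mice had Marco and Tspan8 called higher and Pecam1 and Cd4 called lower. Tspan8 and Cd4 were not called without the libraries low in Arntl described next (adjusted p = 0.135 and 0.13) nor in several fits without 1 mouse (up to 0.0703 and 0.0792). The summed level of each list overlapped between the genotypes. Lep, Prss2, Cpa1, and Pnlip, which mark adipocytes and pancreatic acinar cells, were at 0 counts in all 10 libraries. In bulk liver, fewer cells of a type and less RNA per cell cannot be told apart. The clock gene Arntl parted the Nrf2-knockout libraries, with replicates 1, 3, and 4 between 0.66 and 1.81 CPM and replicates 2 and 5 at 16.8 and 10.2 CPM, beside 11.7 to 18.6 CPM in wild-type mice. Many named genes and lists whose calls change without those 3 libraries are given with and without them, though not all.

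Of 13935 genes tested, 1315 (9.44%) were called, at an adjusted p under 0.05 and an absolute log2 difference of at least 0.5. Wild-type mice had higher expression of 676 genes (4.85%) and lower expression of 639 (4.59%). All differences are given as wild-type minus Nrf2-knockout. The largest changes lay on the higher side, where 49 genes differed by a log2 difference of 3 or more, against 22 on the lower side. Among all genes tested 10.8% had groups without overlap, which held for 541 of the 676 higher and 393 of the 639 lower genes. In every alternative setting that tested them, 347 of the higher and 179 of the lower genes were called. The lower count depended on single mice, falling to 423 without wild-type replicate 1 and to 403 without wild-type replicate 3. Without the 3 Nrf2-knockout libraries low in Arntl, 576 genes were higher and 511 lower, and 419 of the 676 and 300 of the 639 genes were called again in the same direction.

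**Figure D1:**
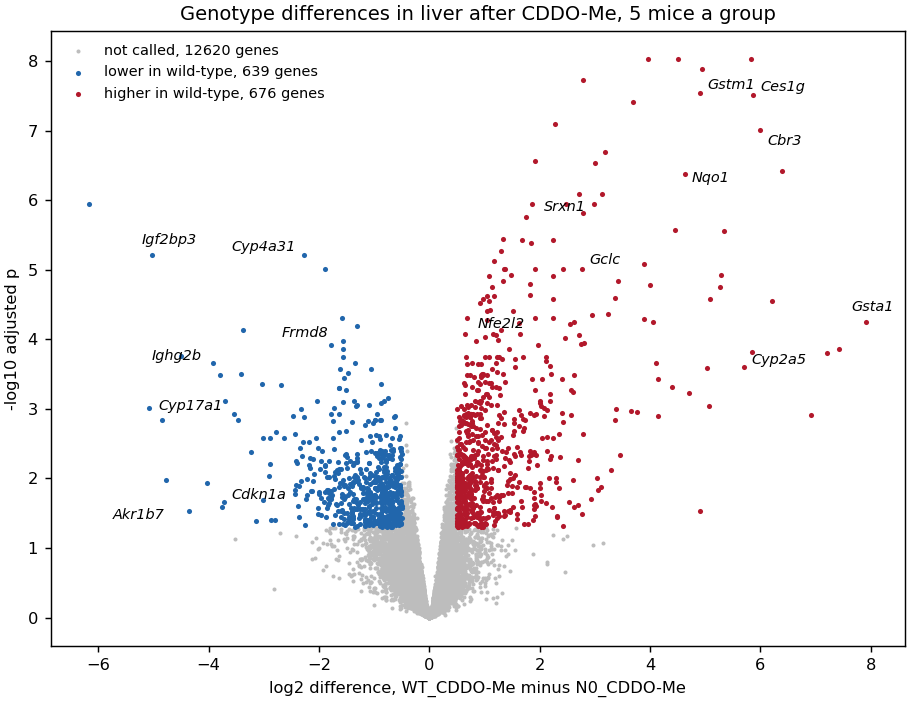
Each point is 1 of 13935 genes, placed by its log2 difference between WT_CDDO-Me and N0_CDDO-Me mice (5 mice a group) and by the negative log10 of its adjusted p. Red points are the 676 genes higher in wild-type mice and blue points the 639 with less expression there, and the widest differences are on the right, led by Gsta1 at 7.91.

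The transcript of the targeted gene itself was lower in the Nrf2-knockout mice. Nfe2l2 (ENSMUSG00000015839.6, chromosome 2, 75675513 to 75704641) was at 52.8, 47.9, 59.7, 57.5, and 49.8 CPM in wild-type and at 22.4, 23.3, 27.7, 28.7, and 29.2 CPM in Nrf2-knockout mice. The groups did not overlap, the log2 difference was 1.01 (SE 0.11, adjusted p = 9.19e-05), and 825 to 1156 counts remained in each Nrf2-knockout library. Its transcript was therefore read in both genotypes, and the counts per gene do not show which exons the remaining reads came from. Keap1 (ENSMUSG00000003308.15, chromosome 9, 21229730 to 21239361) was at 72.4, 77.5, 61.6, 62.5, and 69.1 CPM in wild-type and at 61.4, 49.3, 47.7, 52.7, and 41.1 CPM in Nrf2-knockout mice. Wild-type values lay above all Nrf2-knockout values, but the log2 difference of 0.43 (SE 0.11, adjusted p = 0.0232) stayed under the size needed for a call. Without the libraries low in Arntl Keap1 was called higher, at 0.58 (adjusted p = 0.0291).

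Among the 10 partners and regulators of NRF2 listed, 3 were called higher in wild-type mice and 0 lower, with a median log2 difference of 0.45 against -0.03 over all genes tested. With the libraries low in Arntl left out, 6 were called higher and 0 lower. Besides Nfe2l2, those called with all mice were Mafg, a small MAF partner, and Sqstm1, the autophagy receptor p62 that binds KEAP1. Mafg stood at 124, 101, 111, 115, and 138 CPM in wild-type and at 89.8, 72.1, 65.2, 64.4, and 65.8 CPM in Nrf2-knockout mice. Every wild-type value was above every Nrf2-knockout value (log2 difference 0.70, SE 0.11, adjusted p = 0.00201). For Sqstm1 the log2 difference was 0.68 (SE 0.11, adjusted p = 0.00221). Mafk, another small MAF gene, differed by 0.48 (adjusted p = 0.0144), under the size needed. Without the libraries low in Arntl Mafk was called higher, at 0.60 (adjusted p = 0.0307).

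NRF2 and small MAF proteins bind the antioxidant response element, whose core is searched here as TGACNNNGC on either strand. Promoters, from 250 bases before to 50 bases after the RefSeq start (GRCm38.p6), were found for 509 of the 676 higher genes and 460 of the 639 lower genes. A gene with several promoters was counted as holding the core if any of them did. Among genes with a promoter, 17.5% of the higher genes, 15.2% of the lower genes, and 16.7% of all genes tested held it. For the 59 higher genes with a promoter in the detoxification and antioxidant lists the share was 20.3%. Over all 102 tested genes with a promoter in those lists it was 15.7%. The shares lay close together, and a match is a string of letters and not a shown site of binding. The 6 promoters below belong to the genes of these lists with the lowest p that hold a match, and are shown because their genes carry the differences described next. Capitals mark the matched 9 bases, and each sequence reads 5′ to 3′ on the strand of its gene.
Ugdh: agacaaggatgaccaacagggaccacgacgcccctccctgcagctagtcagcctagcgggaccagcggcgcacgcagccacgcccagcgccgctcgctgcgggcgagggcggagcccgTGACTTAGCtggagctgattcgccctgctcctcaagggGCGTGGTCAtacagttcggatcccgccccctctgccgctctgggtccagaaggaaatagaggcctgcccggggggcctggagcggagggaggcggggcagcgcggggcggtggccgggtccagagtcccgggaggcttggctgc
Srxn1: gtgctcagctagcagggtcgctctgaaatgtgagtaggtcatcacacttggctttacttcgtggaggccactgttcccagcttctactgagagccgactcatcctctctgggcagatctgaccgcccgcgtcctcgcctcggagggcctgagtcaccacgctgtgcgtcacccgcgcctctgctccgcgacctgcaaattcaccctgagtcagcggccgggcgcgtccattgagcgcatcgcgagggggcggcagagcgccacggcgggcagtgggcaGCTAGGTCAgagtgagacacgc
Txnrd1: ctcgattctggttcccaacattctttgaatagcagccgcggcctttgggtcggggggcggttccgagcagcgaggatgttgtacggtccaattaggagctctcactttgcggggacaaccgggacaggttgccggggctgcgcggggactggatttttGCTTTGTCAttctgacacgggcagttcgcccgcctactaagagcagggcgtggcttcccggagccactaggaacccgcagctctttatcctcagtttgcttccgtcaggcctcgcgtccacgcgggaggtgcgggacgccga
Slc35d1: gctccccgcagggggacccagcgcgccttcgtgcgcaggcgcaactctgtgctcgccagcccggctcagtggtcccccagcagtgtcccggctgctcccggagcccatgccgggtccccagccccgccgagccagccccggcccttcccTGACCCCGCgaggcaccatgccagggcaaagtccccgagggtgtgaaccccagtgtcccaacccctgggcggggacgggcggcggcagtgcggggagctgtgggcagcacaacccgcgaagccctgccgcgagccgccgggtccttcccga
Gclm: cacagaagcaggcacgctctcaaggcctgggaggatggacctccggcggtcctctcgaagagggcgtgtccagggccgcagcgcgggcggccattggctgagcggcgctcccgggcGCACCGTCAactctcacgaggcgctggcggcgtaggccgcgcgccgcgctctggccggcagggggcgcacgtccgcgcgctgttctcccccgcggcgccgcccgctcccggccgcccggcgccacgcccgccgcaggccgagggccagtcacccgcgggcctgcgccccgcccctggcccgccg
Me1: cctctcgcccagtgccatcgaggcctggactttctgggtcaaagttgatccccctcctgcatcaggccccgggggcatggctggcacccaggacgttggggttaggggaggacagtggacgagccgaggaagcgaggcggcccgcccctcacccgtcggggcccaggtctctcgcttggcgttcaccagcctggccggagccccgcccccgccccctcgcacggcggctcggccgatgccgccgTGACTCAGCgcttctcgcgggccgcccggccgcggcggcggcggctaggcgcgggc

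Ugdh makes UDP-glucuronic acid and Slc35d1 carries it into the endoplasmic reticulum, Srxn1 repairs oxidised peroxiredoxins, Txnrd1 reduces thioredoxin, Gclm is the modifier subunit of the glutathione-making ligase, and Me1 is malic enzyme, which makes NADPH. The Ugdh promoter, on chr5:65435793-65436092 (minus strand), holds 2 matches. The others hold 1 each: Srxn1 on chr2:152105274-152105573 (plus), Txnrd1 on chr10:82858956-82859255 (plus), Slc35d1 on chr4:103215127-103215426 (minus), Gclm on chr3:122245307-122245606 (plus), and Me1 on chr9:86695865-86696164 (minus). For Txnrd1 and Me1 the RefSeq table lists other promoters as well, 3 and 2 in all.

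Glutathione S-transferases, which join glutathione to electrophiles, held Gsta1, the gene with the widest difference on the higher side. Of the 7 mu class genes 5 were called higher in wild-type mice, with a median log2 difference of 2.25, and Gstm5 and Gstm7 were not called. Gstm1 (ENSMUSG00000058135.12, chromosome 3, 108012255 to 108017973) was at 10100, 8890, 10700, 10700, and 13500 CPM in wild-type and at 320, 283, 482, 356, and 337 CPM in Nrf2-knockout mice. The lowest wild-type value was far above the highest Nrf2-knockout value (log2 difference 4.90, SE 0.20, adjusted p = 2.86e-08). Gstm3 read 1300, 873, 1150, 1070, and 2330 CPM in wild-type and 25.5, 18.5, 71.3, 26.7, and 28.3 CPM in Nrf2-knockout mice. Wild-type replicate 5 and Nrf2-knockout replicate 3 were the highest of their groups, and the log2 difference was 5.28 (SE 0.43, adjusted p = 1.17e-05). Gstm4 and Gstm2 differed by 3.18 and 2.25. Gstm2-ps1, a processed pseudogene on chromosome 5, and Gm12498, a long noncoding RNA gene on the minus strand between 108018294 and 108025249, upstream of Gstm1, differed by 4.94 and 6.39. These genes resemble each other, so which of them a read came from is uncertain.

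Of the 14 other glutathione S-transferases tested, 8 were higher, 0 were lower, and the median was 1.27. Gsta1 and Gsta2, alpha class enzymes of chromosome 9, are near-copies of each other and of Gm3776. Gsta1 (ENSMUSG00000074183.3, chromosome 9, 78230656 to 78242684) was at 9.16, 8.27, 24.5, 34.5, and 66.4 CPM in wild-type and at 0.0797, 0.0242, 0.288, 0.0348, and 0.118 CPM in Nrf2-knockout mice. The wild-type values spread widely, with replicate 5 the highest, and did not overlap the Nrf2-knockout values (log2 difference 7.91, SE 0.78, adjusted p = 5.64e-05). Gsta2 was at 88.1, 70, 105, 123, and 228 CPM in wild-type and at 4.15, 1.69, 6.16, 1.43, and 4.31 CPM in Nrf2-knockout mice. Its log2 difference was 5.08 (SE 0.46, adjusted p = 2.65e-05), and Gm3776 differed by 7.43. Mgst1, a microsomal form, read 4140, 4020, 3700, 3300, and 2870 CPM in wild-type and 1560, 1540, 1400, 1720, and 1200 CPM in Nrf2-knockout mice. That difference was smaller but without overlap (log2 difference 1.26, SE 0.14, adjusted p = 0.000182).

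Glutathione synthesis and the thioredoxin system, which supply and recycle cellular reducing power, were higher in part. Of 22 genes tested 10 were called higher and 1, Ggct, lower, with a median of 0.41. Ggct was not called without the libraries low in Arntl, when 12 genes of the list were called higher and 1 lower. Gclc (ENSMUSG00000032350.9, chromosome 9, 77754535 to 77794485), the catalytic subunit of the ligase, was at 751, 703, 1010, 1390, and 1230 CPM in wild-type and at 118, 135, 153, 129, and 196 CPM in Nrf2-knockout mice. Wild-type replicates 4 and 5 were the highest, and the groups did not overlap (log2 difference 2.77, SE 0.22, adjusted p = 9.76e-06). Gclm differed less (log2 difference 1.05, SE 0.10, adjusted p = 3.87e-05). Srxn1 stood at 222, 193, 227, 272, and 382 CPM in wild-type and at 34.6, 39.5, 31.6, 27.2, and 27.8 CPM in Nrf2-knockout mice. Wild-type replicate 5 was again the highest, and the log2 difference was 2.99 (SE 0.19, adjusted p = 1.14e-06). For Txnrd1 the values were 274, 293, 310, 375, and 365 CPM in wild-type and 101, 99.6, 88.5, 104, and 80.1 CPM in Nrf2-knockout mice. The groups were parted by more than the range of either (log2 difference 1.75, SE 0.12, adjusted p = 1.75e-06). Gsr is glutathione reductase (log2 difference 1.37, SE 0.11, adjusted p = 9.76e-06). Sod2 and Prdx3, mitochondrial antioxidant enzymes named after their values were seen, were not called and differed by 0.08 and 0.17.

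NADPH feeds both systems, and 4 of its 10 enzymes were higher. Me1 was at 223, 257, 261, 289, and 134 CPM in wild-type and at 41.2, 37.6, 44.2, 65, and 55.5 CPM in Nrf2-knockout mice. Wild-type replicate 5 was the lowest of its group but above every Nrf2-knockout mouse (log2 difference 2.24, SE 0.22, adjusted p = 4.95e-05). Tkt, a transketolase of the pentose phosphate pathway, read 256, 264, 286, 292, and 280 CPM in wild-type and 107, 53.9, 95, 100, and 83 CPM in Nrf2-knockout mice. Replicate 2 was the lowest Nrf2-knockout mouse, and the groups did not overlap (log2 difference 1.63, SE 0.16, adjusted p = 5.89e-05). Pgd and G6pdx, which make NADPH in the same pathway, differed by 1.44 and 1.45, and G6pdx was not called without the libraries low in Arntl (1.00, adjusted p = 0.0857).

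Enzymes that reduce quinones and carbonyls or open epoxides followed, with 11 of 20 higher, 1 lower, and a median of 0.79. Without the libraries low in Arntl 12 were higher and 1 lower. Nqo1 (ENSMUSG00000003849.8, chromosome 8, 107388225 to 107403206), the quinone reductase used as a marker of NRF2 activity, was at 55.1, 48.3, 52.6, 57.1, and 109 CPM in wild-type and at 2.29, 3.41, 2.92, 1.88, and 2.24 CPM in Nrf2-knockout mice. Replicate 5 lay above the other wild-type mice, and no value overlapped (log2 difference 4.63, SE 0.26, adjusted p = 4.23e-07). Cbr3 (ENSMUSG00000022947.8, chromosome 16, 93683215 to 93690990) reduces carbonyls in the cytosol and was at 14.2, 16.2, 22.2, 20.9, and 35.1 CPM in wild-type and at 0.346, 0.339, 0.312, 0.243, and 0.413 CPM in Nrf2-knockout mice. Nrf2-knockout mice stayed under 1 CPM, and the log2 difference was 6.0 (SE 0.29, adjusted p = 9.86e-08). Ephx1, microsomal epoxide hydrolase, stood at 1110, 1080, 1350, 1360, and 1530 CPM in wild-type and at 244, 126, 185, 179, and 189 CPM in Nrf2-knockout mice. Blvrb, biliverdin reductase B, differed by 2.47 and Ephx1 by 2.78 (adjusted p = 1.14e-06 and 1.5e-06). Cbr1, the neighbour of Cbr3, differed by 1.91 (SE 0.15, adjusted p = 9.76e-06) and was named after its values were seen. The 1 gene called lower was Akr1b7, an aldose reductase of bile acid and steroid metabolism. It read 0.783, 0.959, 0.988, 0.528, and 1.2 CPM in wild-type and 1.7, 80.4, 5.32, 1.95, and 1.89 CPM in Nrf2-knockout mice. Nrf2-knockout replicate 2 alone was far above the rest, although no values overlapped. The log2 difference of -4.36 had an adjusted p of 0.0297 with all mice, and between 0.069 and 0.0749 when any 1 of wild-type replicates 1 to 4 was left out. Without replicate 2 the difference was -1.64 (adjusted p = 0.0157).

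**Figure D2:**
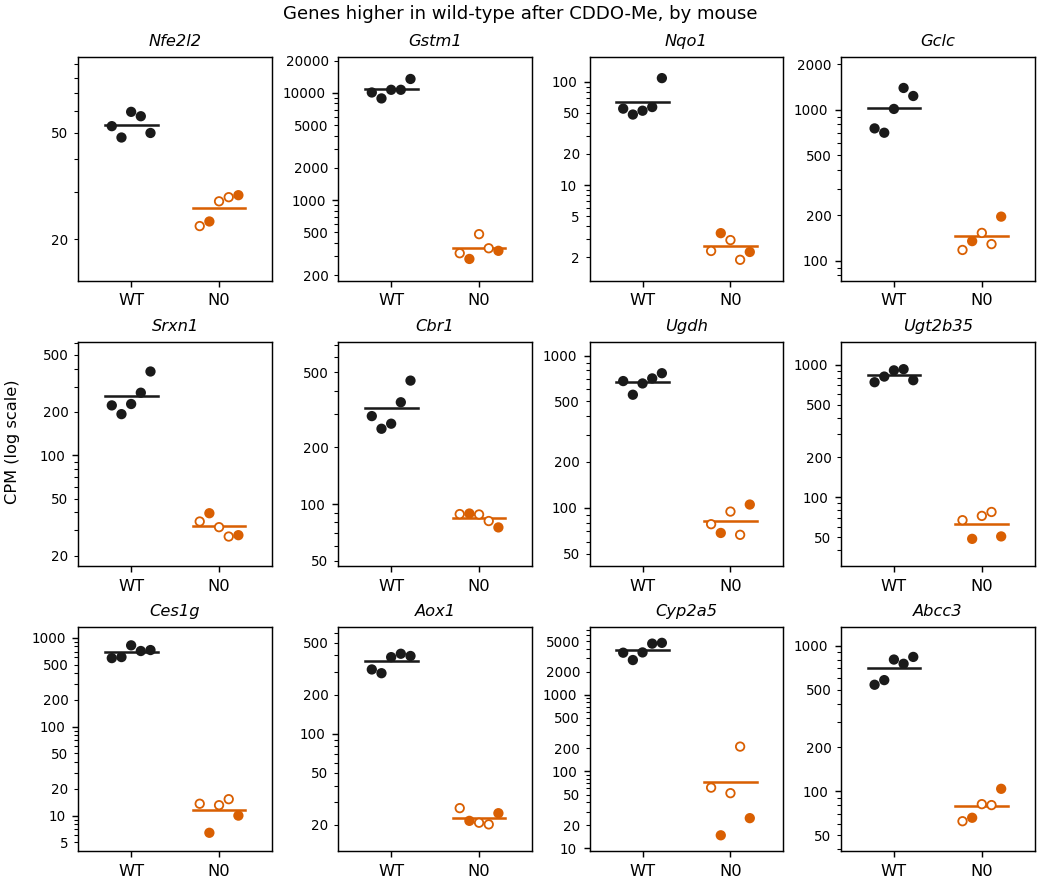
Expression in CPM on a log axis for 12 genes, with 1 point per mouse and a line at each group mean, in wild-type (WT, black) and Nrf2-knockout (N0, orange) mice after CDDO-Me. Open circles are the 3 libraries low in Arntl, and in all 12 panels the groups do not overlap whichever kind of circle is read.

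Glucuronidation, which joins glucuronic acid to drugs, bilirubin, and steroids, involves both enzymes of sugar supply and transferases. Of 18 genes tested 12 were higher and 1 lower, with a median of 1.1. Ugdh (ENSMUSG00000029201.14, chromosome 5, 65413221 to 65435949) stood at 680, 553, 656, 708, and 766 CPM in wild-type and at 78, 68.3, 94.4, 66.4, and 105 CPM in Nrf2-knockout mice. No values overlapped (log2 difference 3.01, SE 0.16, adjusted p = 2.87e-07). Ugt2b35 was at 739, 815, 908, 927, and 765 CPM in wild-type and at 67.1, 48.5, 72.3, 77.4, and 50.6 CPM in Nrf2-knockout mice. The groups lay far apart, and the log2 difference was 3.70 (SE 0.16, adjusted p = 3.87e-08). Ugt2b5 and Ugt1a6b differed by 2.71 and 1.92, although Ugt1a genes share exons and Ugt2b, Ces, Cyp2c, and Cyp4a genes have close relatives, so that reads may be split among them. Gm18635, a processed pseudogene within the Ugt2b cluster, had the lowest p of all genes tested and read 15.9, 15.1, 18.3, 19.7, and 15.2 CPM in wild-type and 0.372, 0.266, 0.312, 0.348, and 0.148 CPM in Nrf2-knockout mice. Ugt2b37 went the other way, at 0.235, 0.463, 0.529, 0.469, and 0.4 CPM in wild-type and at 1.51, 0.726, 3.86, 2.82, and 0.856 CPM in Nrf2-knockout mice. Its groups did not overlap (log2 difference -2.22, SE 0.47, adjusted p = 0.0103), and without the 3 libraries low in Arntl it was at -0.92 with an adjusted p of 0.143. Entpd5, a nucleotide diphosphatase of the endoplasmic reticulum, was at 716, 731, 821, 846, and 734 CPM in wild-type and at 149, 161, 181, 155, and 137 CPM in Nrf2-knockout mice. The groups lay far apart (log2 difference 2.28, SE 0.11, adjusted p = 8.12e-08).

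Carboxylesterases, which split ester drugs and lipids, had the highest share of calls among the lists, 11 of 13 higher and 0 lower, with a median of 1.21. All 8 genes tested in the Ces1 cluster on chromosome 8, between 93020214 and 93379725, were higher. Ces1g (ENSMUSG00000057074.6, chromosome 8, 93302369 to 93337308) was at 590, 606, 821, 709, and 727 CPM in wild-type and at 13.6, 6.41, 13.1, 15.3, and 10 CPM in Nrf2-knockout mice. Replicate 2 was the lowest Nrf2-knockout mouse (log2 difference 5.87, SE 0.25, adjusted p = 3.05e-08). Ces1b stood at 250, 214, 230, 246, and 291 CPM in wild-type and at 9.22, 11.3, 9.54, 9.11, and 13.9 CPM in Nrf2-knockout mice. It had the joint lowest adjusted p of all genes, with a log2 difference of 4.51 (SE 0.16, adjusted p = 9.36e-09). Ces1h was at 0 counts in all 5 Nrf2-knockout mice and between 0.43 and 0.635 CPM in wild-type mice, at least 5.32-fold higher against a floor of 3 counts per library. Ces1h passed the count filter through the wild-type mice alone and could only be called higher, yet it is counted among the 8 and the 11. Ces2c, of the separate Ces2 cluster on the same chromosome, differed by 3.89.

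Aldehyde and flavin oxidases and aldehyde dehydrogenases were higher for 7 of 14 genes, with 0 lower and a median of 0.55. Aox1, an aldehyde oxidase, was at 312, 292, 388, 412, and 396 CPM in wild-type and at 26.8, 21.4, 20.7, 20.1, and 24.5 CPM in Nrf2-knockout mice. Nrf2-knockout values spanned only 20.1 to 26.8 CPM (log2 difference 3.97, SE 0.14, adjusted p = 9.36e-09). Aldh1a1, which makes retinoic acid, stood at 2710, 2860, 3010, 2950, and 1840 CPM in wild-type and at 575, 282, 405, 766, and 392 CPM in Nrf2-knockout mice. Replicate 5 was the lowest wild-type mouse and did not overlap the Nrf2-knockout mice (log2 difference 2.45, SE 0.26, adjusted p = 9.58e-05). Sulfotransferases did not share this direction, since 1 of 7 was higher, Sult1b1, and Sult1d1 and Papss2, which makes the sulfate donor, were lower. Both lower calls were lost in several fits that left out 1 mouse, with adjusted p up to 0.096 for Papss2 and 0.0857 for Sult1d1. Papss2 read -0.50 (adjusted p = 0.255) without the libraries low in Arntl.

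Cytochromes P450 of the drug-sensing receptors were split. Cyp2a5 (ENSMUSG00000005547.14, chromosome 7, 26835305 to 26843548), a coumarin hydroxylase, read 3540, 2840, 3570, 4650, and 4760 CPM in wild-type and 61.5, 14.7, 52.1, 211, and 24.6 CPM in Nrf2-knockout mice. The Nrf2-knockout mice spread from 14.7 to 211 CPM, and replicate 4, the highest, was still under the wild-type mice (log2 difference 5.71, SE 0.68, adjusted p = 0.000253). Cyp1a2 and Cyp1a1, targets of the aryl hydrocarbon receptor, differed by 1.95 and 1.35 and were both called. Among 16 CAR and PXR genes 6 were higher and 2 lower, or 5 and 0 without the libraries low in Arntl. Nr1i3, which encodes CAR, was at 464, 341, 444, 387, and 322 CPM in wild-type and at 45, 90.3, 44.2, 103, and 48.8 CPM in Nrf2-knockout mice. The lowest wild-type value was above the highest Nrf2-knockout value (log2 difference 2.55, SE 0.25, adjusted p = 6.04e-05). Cyp2c54 and Cyp2c50 differed by 2.30 and 2.35. Cyp2b9 stood at 0.626, 0.265, 0.176, 2.11, and 0 CPM in wild-type and at 5.16, 1.23, 17.6, 51.1, and 13.9 CPM in Nrf2-knockout mice. Nrf2-knockout replicate 2 overlapped the wild-type mice. The gene was called lower (log2 difference -4.78, SE 1.02, adjusted p = 0.0106) but read -3.58 with an adjusted p of 0.0727 without the libraries low in Arntl. Cyp3a11 and Cyp2b10, named after their values were seen as common targets of these receptors, were not called, at -0.14 and -0.35.

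Transporters of conjugates were higher for 5 of 13 ABC genes, with 0 lower. Abcc3, which moves glucuronides into blood, was at 539, 580, 803, 751, and 837 CPM in wild-type and at 62.3, 65.8, 81.6, 80.4, and 104 CPM in Nrf2-knockout mice. Wild-type values were the higher in every pair of mice (log2 difference 3.13, SE 0.19, adjusted p = 8.08e-07). Abcc4 differed by 2.71 and Abcc2, the canalicular exporter, by 1.21. Abcc12 read 1.72, 3.44, 3.7, 6.22, and 6.37 CPM in wild-type and 0.0797, 0.121, 0.0479, 0, and 0 CPM in Nrf2-knockout mice. Counts in the Nrf2-knockout mice were few or 0, and the adjusted p was 2.77e-05. Abcc12 passed the count filter through the wild-type mice alone and could only be called higher, yet it is counted among the 5. Of 17 genes for bile acid synthesis and uptake 8 were higher and 0 lower, with a median of 0.52, and 5 were higher without the libraries low in Arntl. Cyp8b1, which sets the share of cholic acid, stood at 710, 583, 764, 672, and 521 CPM in wild-type and at 227, 170, 83.7, 224, and 180 CPM in Nrf2-knockout mice. Its log2 difference was 1.86 (SE 0.23, adjusted p = 0.000371), and Cyp27a1 of the alternative pathway differed by 1.05. Cyp7a1, the rate-limiting enzyme of the classical pathway and named after its values were seen, was not called, at -0.21.

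Of 20 genes of heme and iron 6 were higher and 1 lower, with a median of 0.21. Without the libraries low in Arntl 7 were higher and 1 lower. Ftl1, the ferritin light chain, was at 3060, 2650, 2850, 2770, and 3480 CPM in wild-type and at 998, 979, 845, 829, and 905 CPM in Nrf2-knockout mice. Again no values overlapped (log2 difference 1.68, SE 0.12, adjusted p = 3.72e-06). Slc48a1, a heme carrier, differed by 1.51, Hfe, a regulator of hepcidin, by 1.09, and Fth1, the ferritin heavy chain, by 1.08. The lower gene was Slc39a14, a zinc and iron carrier, at -0.79. Hmox1, the inducible heme oxygenase and a textbook NRF2 target in other tissues, was named after its values were seen. It stood at 15.1, 15.3, 15.1, 15.9, and 21.9 CPM in wild-type and at 10.2, 10.5, 13.4, 10.9, and 23.4 CPM in Nrf2-knockout mice. The groups overlapped, and the log2 difference of 0.26 had an adjusted p of 0.488. Csad and Cdo1, which make taurine from cysteine, differed by 2.20 and 0.76, and Cdo1 read 0.51 with an adjusted p of 0.0827 without the libraries low in Arntl. Gbe1 and Ppp1r3c, which branch glycogen and target phosphatase to it, differed by 1.83 and 1.83. Marco, a scavenger receptor of Kupffer cells, was the 1 macrophage marker called, at 7.48, 16.1, 13, 18.2, and 26.7 CPM in wild-type and at 3.16, 1.48, 3.95, 5.11, and 4.57 CPM in Nrf2-knockout mice. No other of the 11 macrophage markers was called, and the median of the list was -0.24.

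**Figure D3:**
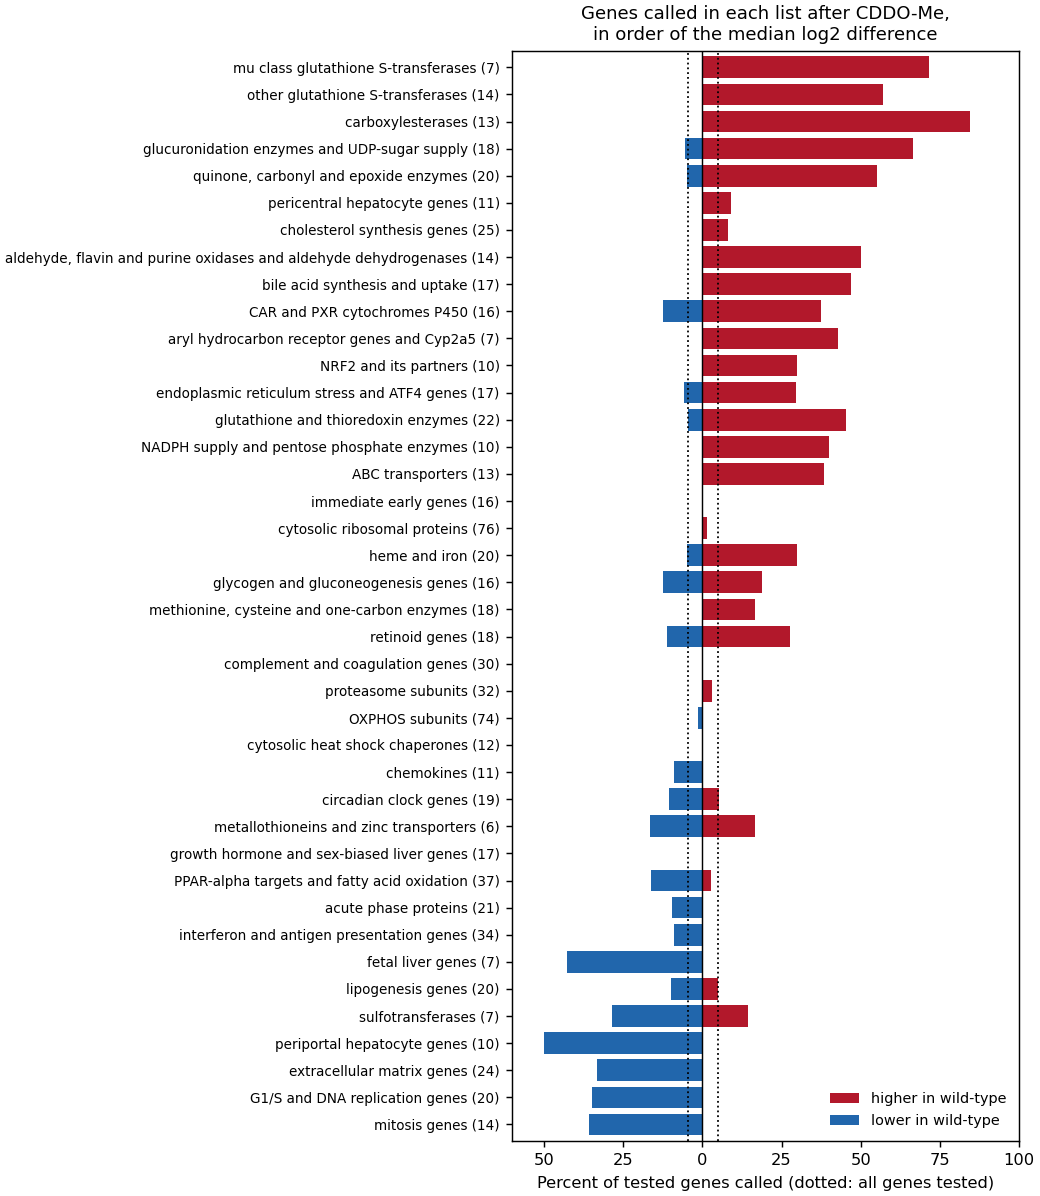
Bars give the percentage of tested genes of each pathway list called higher (red, right) or lower (blue, left) in wild-type mice after CDDO-Me, with the number tested in brackets and dotted lines at 4.85% and 4.59%, the shares over all genes. Lists are ordered by median log2 difference, with 5 detoxification lists at the top and the matrix, replication, and mitosis lists at the bottom.

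Among the genes lower in wild-type mice, Gm3608, a pseudogene, had the lowest p and read 0.0783, 0.0331, 0.0353, 0.0586, and 0.0307 CPM in wild-type and 4.68, 2.23, 5.13, 2.75, and 2.89 CPM in Nrf2-knockout mice. Wild-type libraries held 1 or 2 counts each, at the floor of detection. Igf2bp3 (ENSMUSG00000029814.10, chromosome 6, 49085223 to 49214957), an RNA-binding protein of fetal liver, was at 0.0783, 0.165, 0.0706, 0.117, and 0.461 CPM in wild-type and at 5.32, 6.68, 6.69, 6.92, and 4.37 CPM in Nrf2-knockout mice. All Nrf2-knockout mice exceeded 4 CPM (log2 difference -5.02, SE 0.38, adjusted p = 6.14e-06). Igf2bp3 held 2 to 15 counts per wild-type library. Like Gm3608, it passed the count filter through the Nrf2-knockout mice and could only be called lower. Of 7 fetal liver genes tested 3 were lower, Igf2bp3 among them, and 0 higher. Afp and H19 were the others, at -1.71 and -2.38, and H19 had adjusted p between 0.0533 and 0.0649 without Nrf2-knockout replicate 3 or any 1 of wild-type replicates 1 to 4.

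Genes that PPAR-alpha controls and genes of fatty acid oxidation included 6 lower and 1 higher of 37, with a median of -0.19, and 3 lower and 2 higher without the libraries low in Arntl. Cyp4a31 (ENSMUSG00000028712.12, chromosome 4, 115563649 to 115579015), a fatty acid hydroxylase, stood at 6.65, 9.33, 8.75, 9.03, and 5.14 CPM in wild-type and at 33, 41, 32, 45.3, and 34 CPM in Nrf2-knockout mice. The groups did not overlap (log2 difference -2.27, SE 0.17, adjusted p = 6.14e-06). Cyp4a14, of the same cluster, was at 213, 409, 198, 350, and 107 CPM in wild-type and at 800, 1150, 594, 1590, and 962 CPM in Nrf2-knockout mice. No values overlapped (log2 difference -2.01, SE 0.35, adjusted p = 0.0036). Acot2 and Acot1, acyl-CoA thioesterases, differed by -1.29 and -1.64 with all mice and by -1.31 and -1.21 without the libraries low in Arntl (adjusted p = 0.0727 and 0.163). Ppara itself, named after its values were seen, was not called. Lipogenesis genes showed few calls, with Elovl3 higher and Fads2 and Lpin1 lower among 20 genes. Their median moved from -0.46 to 0.00 without the libraries low in Arntl, and Fads2 and Lpin1 were then not called (adjusted p = 0.129 and 0.0666). Without any 1 of wild-type replicates 1 to 4 Lpin1 had adjusted p between 0.0588 and 0.0618.

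Calls in the lists of cell division were all on the lower side with all mice. Of 20 genes tested for entry into S phase and DNA replication 7 were lower and 0 higher, and of 14 mitosis genes tested, of 24 listed, 5 were lower and 0 higher. Ccnd1, cyclin D1, was at 9.16, 11.5, 11.6, 13.7, and 21.2 CPM in wild-type and at 70.8, 12.8, 132, 67.4, and 63.7 CPM in Nrf2-knockout mice. Replicate 2 of the Nrf2-knockout mice lay within the wild-type range, whereas the other 4 lay above it (log2 difference -2.39, SE 0.46, adjusted p = 0.00602), and without the libraries low in Arntl the difference was -1.55 (adjusted p = 0.0885). Cdkn1a, the cell cycle inhibitor p21, stood at 0.626, 0.827, 1.09, 1.44, and 3.63 CPM in wild-type and at 3.3, 71.6, 6.85, 2.15, and 17 CPM in Nrf2-knockout mice. The groups overlapped. Its highest value was in replicate 2, the Nrf2-knockout mouse lowest in Ccnd1, and the log2 difference was -3.72 (SE 0.93, adjusted p = 0.0221). Mcm5, of the replicative helicase, read 1.1, 1.19, 1.45, 0.762, and 1.57 CPM in wild-type and 4.57, 2.27, 18.9, 2.43, and 3.95 CPM in Nrf2-knockout mice. Replicate 3 was the highest (log2 difference -2.43, SE 0.57, adjusted p = 0.0167). Tpx2 and Ccna2, for spindle and S phase, differed by -2.10 and -1.59, at levels under 3 CPM in every mouse. Tpx2 held 3 to 9 counts per wild-type library and passed the count filter through the Nrf2-knockout mice. It could only be called lower, yet it is counted among the 5 mitosis genes. The replication list had a median of -0.76 with all mice and -0.27 without the 3 libraries low in Arntl, when 4 genes were lower and 1 higher. The mitosis list went from -1.15 to -1.33, with 5 genes lower either way, though not the same 5. Top2a was lower with all mice (-1.96, adjusted p = 0.0338) and had an adjusted p of 0.0578 without those libraries. With the Arntl set as a covariate, Tpx2, Ccna2, Mki67, and Top2a had adjusted p from 0.0634 to 0.184. Nrf2-knockout replicate 3 was the highest mouse for each of these genes. Cdkn1a, an inhibitor, is among the 7 lower genes of the replication list.

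Extracellular matrix genes were lower in wild-type mice for 8 of 24 tested, 0 were higher, and all 24 differences were below 0, with a median of -0.68. Leaving out the libraries low in Arntl gave 5 lower and a median of -0.97. Sparc, a matrix glycoprotein, was at 42.2, 43.4, 51, 52.8, and 70.1 CPM in wild-type and at 80.1, 78.1, 126, 85.4, and 154 CPM in Nrf2-knockout mice. The groups did not overlap, and the log2 difference was -1.04 (SE 0.21, adjusted p = 0.00893). Col5a1 stood at 6.38, 5.33, 7.13, 6.77, and 8.09 CPM in wild-type and at 8.88, 11.2, 14.3, 11.1, and 17.2 CPM in Nrf2-knockout mice. Its log2 difference was -0.92 (SE 0.18, adjusted p = 0.00724), while Col5a2 and Eln, elastin, differed by -1.08 and -1.18 (adjusted p = 0.051 and 0.0562 without the libraries low in Arntl, and 0.054 and 0.0542 for Eln without wild-type replicate 1 or 4). Col4a5, a basement membrane collagen, read 1.88, 1.32, 2.05, 2.32, and 2.61 CPM in wild-type and 5.4, 7.77, 8.36, 6.05, and 7.26 CPM in Nrf2-knockout mice. It was among the 10 lower genes with the lowest p (log2 difference -1.79, SE 0.19, adjusted p = 0.00012). The 7 stellate cell markers summed to between 226 and 294 CPM in wild-type and between 182 and 574 CPM in Nrf2-knockout mice, and none was called. All 7 of their differences were below 0, with a median of -0.39, and without the libraries low in Arntl the median was -0.74 and 2 were called lower. The 7 endothelial markers were all below 0 too, with a median of -0.32 and Pecam1 called lower (adjusted p = 0.0451, and up to 0.11 with 1 mouse left out). Without the libraries low in Arntl their median was -0.64 and 2 were called lower. The part of these cells in the matrix differences was not tested.

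Periportal hepatocyte genes were lower for 5 of 10 tested, with a median of -0.58, and 2 of 10 were called without the libraries low in Arntl. Cdh1, E-cadherin, was at 40.1, 46.7, 46.3, 48.2, and 62.9 CPM in wild-type and at 96.9, 90.3, 119, 59.2, and 94 CPM in Nrf2-knockout mice. Wild-type replicate 5 overlapped 1 Nrf2-knockout mouse (log2 difference -0.93, SE 0.17, adjusted p = 0.00448). Sds, serine dehydratase, stood at 125, 127, 130, 187, and 344 CPM in wild-type and at 512, 483, 456, 318, and 457 CPM in Nrf2-knockout mice. Wild-type replicate 5 overlapped Nrf2-knockout replicate 4 (log2 difference -1.31, SE 0.27, adjusted p = 0.00954). Ass1, of the urea cycle, differed by -0.87 (-0.71, adjusted p = 0.112, without the libraries low in Arntl). All 11 pericentral genes lay above 0, with a median of 0.64, and Cyp1a2 was the 1 called. Without the libraries low in Arntl 5 of 11 were called higher, with a median of 0.85.

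The immunoglobulin heavy chain genes Ighg2b, Ighg2c, and Igha, of switched classes, were called lower in wild-type mice. Ighg2b was at 0.157, 0.165, 0.388, 0.176, and 0.369 CPM in wild-type and at 1.57, 3.29, 6.52, 2.29, and 5.25 CPM in Nrf2-knockout mice. The groups did not overlap (log2 difference -3.92, SE 0.46, adjusted p = 0.00022). Ighg2c read 0.0391, 0.0662, 0.0706, 0.0293, and 0.0922 CPM in wild-type and 1.25, 1.48, 1.39, 0.452, and 2.48 CPM in Nrf2-knockout mice. Wild-type libraries held 1 to 3 counts of Ighg2c, and the adjusted p was 0.000172. For Ighg2b they held 4 to 12 counts. Both genes passed the count filter through the Nrf2-knockout mice and could only be called lower. Igha differed by -1.98 (adjusted p = 0.00721) and Ighm by 0.11 (adjusted p = 0.811), both named after their values were seen. The 4 B cell markers were not called and summed to 2.86 to 5.04 CPM in wild-type and 1.09 to 3.23 CPM in Nrf2-knockout mice. All 4 of their differences were above 0.

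Further genes lower in wild-type mice had single roles. Foxa3 (ENSMUSG00000040891.6, chromosome 7, 19013284 to 19023538), a liver forkhead factor, was at 26.7, 26.7, 25.7, 25.5, and 28.4 CPM in wild-type and at 76.8, 44.7, 62.3, 72.5, and 70.2 CPM in Nrf2-knockout mice. Wild-type mice were alike, and replicate 2 was the lowest Nrf2-knockout mouse (log2 difference -1.32, SE 0.13, adjusted p = 6.47e-05). Frmd8 (ENSMUSG00000024816.12, chromosome 19, 5849702 to 5875274), which binds the iRhom partners of a cell surface protease, stood at 12.3, 13.5, 12.2, 12.9, and 13.7 CPM in wild-type and at 49.3, 28.4, 49, 34, and 28 CPM in Nrf2-knockout mice. Replicates 1, 3, and 4 of the Nrf2-knockout mice were higher than replicates 2 and 5, and all 5 exceeded the wild-type mice (log2 difference -1.56, SE 0.17, adjusted p = 0.000105). Tomm40l, an outer mitochondrial membrane channel, and Bco1, which splits beta-carotene, differed by -1.89 and -1.59. Cyp17a1, a steroid hydroxylase, read 8.34, 5.95, 2.54, 3.87, and 7.53 CPM in wild-type and 23.3, 140, 80.9, 23.4, and 56.2 CPM in Nrf2-knockout mice. Nrf2-knockout values spanned 23.3 to 140 CPM without reaching the wild-type range (log2 difference -3.54, SE 0.52, adjusted p = 0.00118). Lnx1 was at 0.274, 0.364, 0.212, 0.117, and 0.369 CPM in wild-type and at 0.797, 3.9, 14.8, 14.3, and 4.72 CPM in Nrf2-knockout mice. Among the Nrf2-knockout mice replicate 1 was the lowest and replicates 3 and 4 were the highest (log2 difference -4.85, SE 0.74, adjusted p = 0.00143). Pde6h held 0 to 3 counts per wild-type library and 0.417 to 2.42 CPM in Nrf2-knockout mice (adjusted p = 0.00097). Il6ra, the interleukin 6 receptor, and Steap4, a metalloreductase, were the 2 acute phase genes called, both lower, at -1.15 and -0.79. Without the libraries low in Arntl 7 of the 21 were called lower, and the median moved from -0.24 to -0.64. Usp18, which removes ISG15, led the 3 of 34 interferon genes called lower, at -1.39, but read -0.38 with an adjusted p of 0.212 without the libraries low in Arntl, when 1 of the list was lower and 1 higher.

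**Figure D4:**
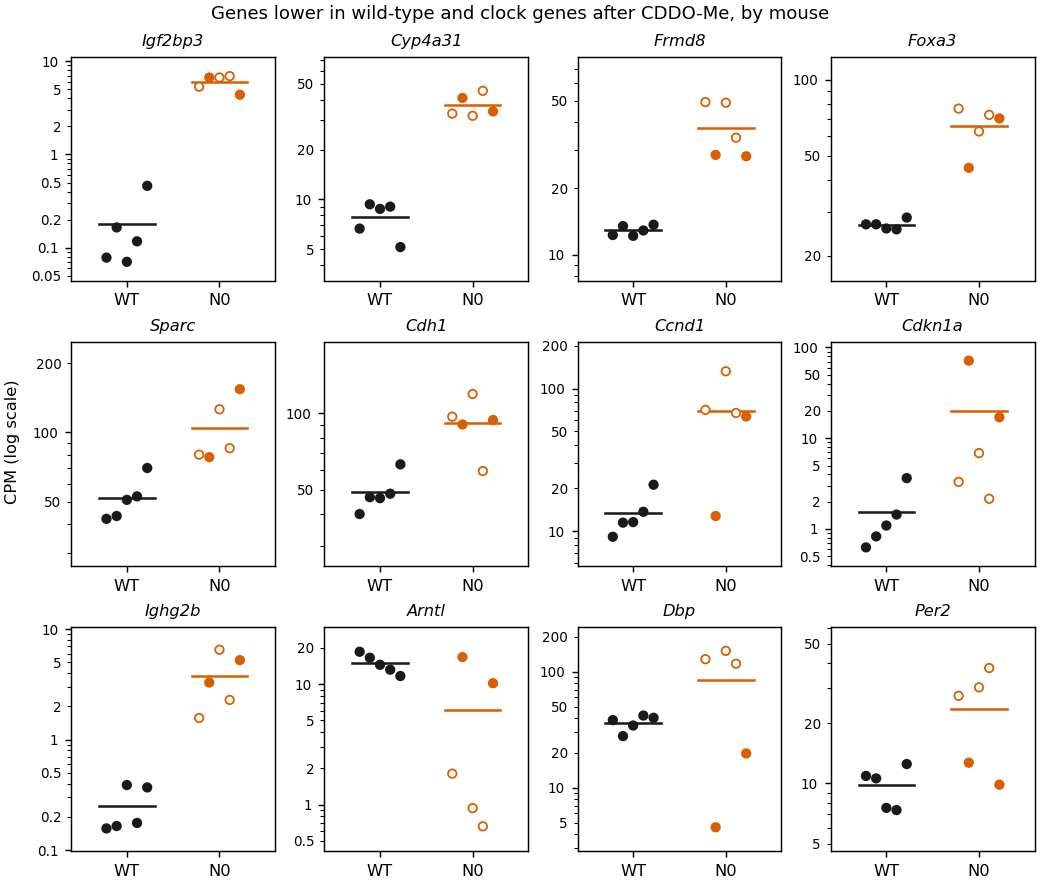
Expression in CPM on a log axis of 9 genes lower in wild-type mice and of the clock genes Arntl, Dbp, and Per2, with 1 point per mouse and a line at each group mean in wild-type (WT, black) and Nrf2-knockout (N0, orange) mice after CDDO-Me. Open circles are the 3 libraries low in Arntl, which lie below the other mice for Arntl and above them for Dbp and Per2.

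Of 19 clock genes 1 was called higher, Clock, and 2 lower, Ciart and Per2. Without the libraries low in Arntl, Clock read 0.27 (adjusted p = 0.38) and Per2 -0.23 (adjusted p = 0.567). Arntl (ENSMUSG00000055116.8, chromosome 7, 113207465 to 113314126), which encodes BMAL1, was at 18.6, 16.6, 14.5, 13.2, and 11.7 CPM in wild-type and at 1.81, 16.8, 0.935, 0.66, and 10.2 CPM in Nrf2-knockout mice. Nrf2-knockout replicate 2 lay within the wild-type range and replicate 5 just below it, and the adjusted p was 0.255. Dbp, an output gene of the clock, ranged from 27.8 to 41.8 CPM in wild-type mice. Nrf2-knockout replicates 2 and 5 were below that range, at 4.55 and 19.7 CPM, and the other 3 were at 117 CPM or above (adjusted p = 0.243). Ciart read 4.62, 4.43, 2.33, 3.64, and 7.93 CPM in wild-type and 25.2, 10.7, 28.2, 29.8, and 10.1 CPM in Nrf2-knockout mice. All Nrf2-knockout values were above the wild-type values (log2 difference -2.19, SE 0.38, adjusted p = 0.003), with -1.20 and an adjusted p of 0.0699 in replicates 2 and 5 alone.

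The remaining lists are read against the 9.44% of all genes called. Cytosolic ribosomal proteins had 1 of 76 higher and 0 lower, and OXPHOS subunits 0 higher and 1 lower of 74. Proteasome subunits had 1 higher of 32, and complement and coagulation genes 0 of 30. Without the libraries low in Arntl OXPHOS and proteasome subunits had 0 called, and 2 complement and coagulation genes were higher. Immediate early genes and cytosolic chaperones had 0 of 16 and 0 of 12, in short lists where that share gives few calls. Growth hormone and sex-biased genes had 0 of 17 (3 higher without the libraries low in Arntl), chemokines 0 higher and 1 lower of 11, and metallothioneins and zinc transporters 1 higher and 1 lower of 6. Retinoid genes were called in both directions, 5 higher and 2 lower of 18, as were genes of glycogen and gluconeogenesis, 3 higher and 2 lower of 16. Without the libraries low in Arntl these became 3 and 1, and 3 and 0. Endoplasmic reticulum stress genes had 5 of 17 higher and 1 lower, led by Atf4 at 0.94 (adjusted p = 0.000225), and 1 higher and 1 lower without the libraries low in Arntl. Cholesterol synthesis genes had a median of 0.61 with 23 of 25 above 0, of which Insig1 and Hsd17b7 were called, and Nrf2-knockout replicate 2 was the lowest mouse for both. Without single mice the adjusted p reached 0.0815 for Insig1 and 0.0824 for Hsd17b7, and without the libraries low in Arntl it was 0.116 and 0.11.

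The same genotypes were compared after vehicle, in other mice. There 579 of 14030 genes (4.13%) were called higher in wild-type mice and 883 (6.29%) were called lower. Of the 676 genes higher after CDDO-Me 322 were also higher after vehicle, which is 47.6% of the first list and 55.6% of the second, and 0 were lower. Of the 639 genes lower after CDDO-Me 291 were also lower after vehicle, or 45.5% and 33.0%, and 0 were higher. The 676 higher genes had a median log2 difference of 0.97 after the drug and 0.60 after vehicle, and the 639 lower genes -0.99 and -0.73. For genes called after vehicle the medians were 0.79 on vehicle and 0.76 on the drug on the higher side, and -0.87 and -0.60 on the lower side. Over 13736 genes tested in both, Pearson's r between the differences was 0.756 and Spearman's rho 0.703, across genes that share libraries and are not independent. Nrf2-knockout vehicle replicates 1, 2, and 3 were low in Arntl too, and no wild-type vehicle library was, so both comparisons carry that imbalance. With the Arntl set as a covariate 954 genes were called after vehicle, 669 of them shared with the main fit.

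The medians of the lists after both treatments are given side by side, and the differences between them were not tested. Quinone and carbonyl enzymes had a median of 0.79 after CDDO-Me and 0.28 after vehicle, and mu class transferases 2.25 and 1.14. Carboxylesterases had 1.21 and 1.16, and other glutathione S-transferases 1.27 and 1.02. On the lower side, matrix genes had -0.68 after the drug, with 8 of 24 called, and -1.03 after vehicle, with 18 called. Periportal genes had -0.58 after the drug and -0.26 after vehicle, and none of the 10 passed the test of a difference between responses described next.

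A gene responds differently in the genotypes when its change from vehicle to drug differs, and 40 of 15010 genes (0.266%) passed that test, 36 with the wild-type response above the Nrf2-knockout response. Of the 36, 34 were called higher after the drug, 23 of them also after vehicle. The genes of this test named next were chosen after their values were seen, except those given before. Cbr3 led it, with a genotype difference of 0.68 after vehicle and 6.0 after CDDO-Me (difference of responses 5.33, SE 0.42, adjusted p = 6.71e-09). Srxn1 went from 0.95 to 2.99, Nqo1 from 1.85 to 4.63, Gstm1 from 2.63 to 4.90, and Gstm3 from 2.01 to 5.28. Akr1b8 went from -0.47 to 1.97 and Cbr1 from 0.11 to 1.91. Aldh3b1, an aldehyde dehydrogenase, Cds2, of phospholipid synthesis, and Srgap2 were likewise without a call after vehicle, and Srgap2 read 0.49 after the drug without the libraries low in Arntl, under the size for a call. Among the 7 quinone and carbonyl enzymes in this test was Esd, a formylglutathione hydrolase, which differed by 0.35 after vehicle and 1.04 after the drug.

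The other 4 genes of that test went in the opposite direction. Frmd8 differed by -0.15 after vehicle and -1.56 after CDDO-Me (adjusted p = 0.00325 for the difference of responses). Slc25a45, a mitochondrial carrier, went from 0.48 to -0.77 (-0.59, adjusted p = 0.0834, after the drug without the libraries low in Arntl), Tomm40l from -0.85 to -1.89, and Etfbkmt, a lysine methyltransferase, from 1.54 to -0.27. Many strongly different genes did not pass this test. Gsta1 went from 4.57 to 7.91 (adjusted p = 0.623), Cyp2a5 from 2.72 to 5.71 (adjusted p = 0.386), Aox1 from 3.05 to 3.97 (adjusted p = 0.061), and Me1 from 2.33 to 2.24 (adjusted p = 0.994). For Me1 the difference of responses was -0.09 with an SE of 0.43, which does not show that the genotypes responded alike. The count of 40 fell to 28 without wild-type vehicle replicate 5 and rose to 85 with DESeq2.

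**Figure D5:**
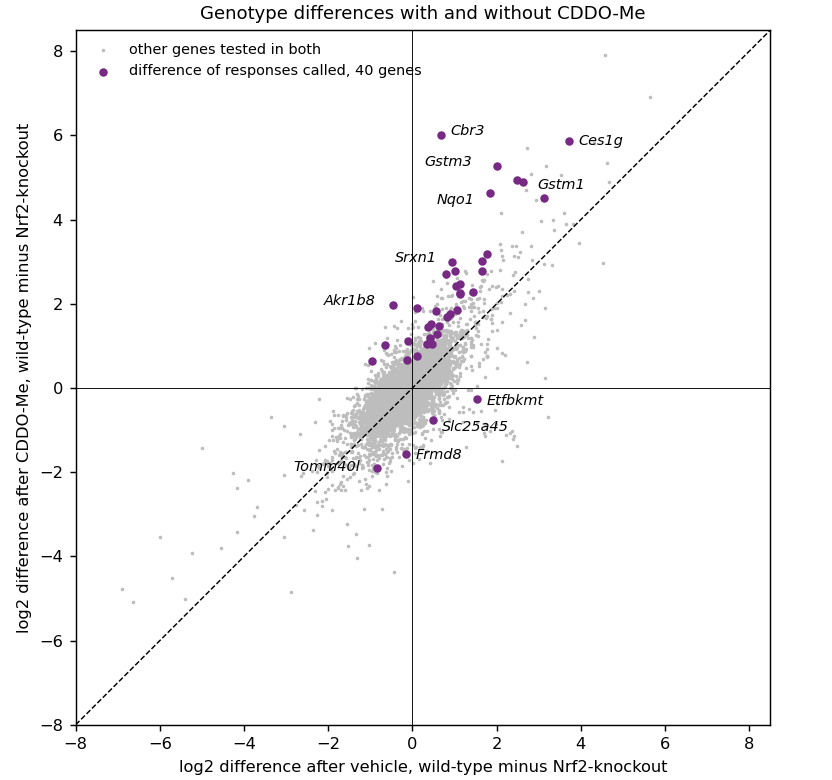
Each point is a gene tested after both treatments, placed by its genotype difference (log2, wild-type minus Nrf2-knockout) after vehicle on the x axis and after CDDO-Me on the y axis, with a dashed line where they are equal. The 40 genes whose responses differed are purple, and most lie above the line, led by Cbr3 at 0.68 and 6.0.

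Called genes were also examined by position. Leaving out Nfe2l2 itself, within 10 Mb of it on chromosome 2 5 of 92 genes tested were called (5.43%), against 7.97% on the rest of the chromosome and 9.44% of all genes. Pdk1, a pyruvate dehydrogenase kinase, was higher at 0.91, and Spc25, Hat1, Ube2l6, and Slc43a1 were lower, of which Spc25, Hat1, and Ube2l6 were not called without the libraries low in Arntl (adjusted p = 0.0792, 0.125, and 0.0914). Calls were also counted in clusters of related genes. Besides the Ces1 cluster, 5 of 7 Gstm genes on chromosome 3 (107895821 to 108044894) and all 4 Gsta genes on chromosome 9 (78182774 to 78355788) were higher. Of these, Gsta1 and Gm3776 had at most 12 and 8 counts per Nrf2-knockout library. Both passed the count filter through the wild-type mice alone and could only be called higher. On chromosome 5 (86889767 to 87424203) 5 of 7 Ugt2b genes were higher and 1 lower. Major urinary protein genes on chromosome 4 (59964294 to 62150863), examined after their values were seen, had 10 of 19 higher and 0 lower. Mup17 led them and stood at 386, 569, 260, 410, and 49.9 CPM in wild-type and at 4.33, 0.556, 0.216, 8.55, and 0.443 CPM in Nrf2-knockout mice. Wild-type replicate 5 was the lowest of its group but above the Nrf2-knockout mice (log2 difference 6.91, SE 1.03, adjusted p = 0.00122), and reads of these near-identical genes are uncertain in their place.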

How the data were processed

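Liver mRNA of 30 male mice (5 per group) had been sequenced by the authors from stranded libraries in 1 pool, with paired reads of 50 bases. Per the labels and methods, read quality was assessed with fastp without removing bases, and reads were aligned to mm10 with STAR 2.7.7 and GENCODE release 23, and deposited by the authors as raw counts per gene. The date of RNA isolation, a covariate of the authors, is not in the labels and was not used here. The 4 summary lines were left out, and symbols and positions (GRCm38) came from GENCODE release 21 for 55154 of 55335 genes.

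The 10 libraries given CDDO-Me were fitted with the quasi-likelihood test of edgeR 4.0.16 (R 4.3.3) after its default filter, with trimmed mean of M values factors and Benjamini-Hochberg adjustment. A gene was called at an adjusted p under 0.05 and an absolute log2 difference of at least 0.5. All adjusted p-values in the text are from this tool and cover all genes tested. The default filter can pass a gene through either genotype alone, and its call can then go only in that direction. Besides the genes for which this is stated, it holds for Gm12498, Gstm2-ps1, and Pde6h. Vehicle mice were fitted alike. The difference of responses was fitted over all 30 libraries at an adjusted p under 0.05, with no size threshold. CPM are descriptive, 0 was bounded by a floor of 3 counts per library, and such bounds cover counting error only. Nothing in the labels describes the mice of a group beyond their numbers, so p-values measure the spread between these samples.

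Named genes were Nfe2l2 and Keap1, the 10 called genes of lowest p and, among called genes with at least 1 CPM in the higher group and no overlap, the 10 of largest difference in each direction, the 4 of lowest p in each list, clock genes, and called genes within 10 Mb of Nfe2l2. Other genes, among them Gclm, Slc35d1, Cdkn1a, Ugt2b37, Ggct, Abcc2, Cyp2c50, Gstm5, Gstm7, Cd4, and Tspan8, were chosen after their values were seen. The comparison, lists, and tests were chosen with earlier results of these data known. Alternatives were DESeq2 1.42.0, other scalings, filters, and fits, and leaving out libraries.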

Additional observations from a re-analysis of the deposited data

Results flagged for a closer look

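Single mice far from the other 4 of their group were found in 33 of 284 groups of values for the genes named, where chance flags about 1 in 20 groups. Wild-type replicate 5 gave 13 of these. It was the highest of its group for Nqo1 (109 CPM), Gm3776 (29.5 CPM), Hmox1 (21.9 CPM), Lpin1 (184 CPM), Sds (344 CPM), Cdkn1a (3.63 CPM), H19 (2.58 CPM), Igf2bp3 (0.461 CPM), and Ccna2 (0.461 CPM). It was the lowest for Aldh1a1 (1840 CPM), Cyp2c50 (417 CPM), Cyp2c54 (204 CPM), and Pdk1 (59.7 CPM).

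Nrf2-knockout replicate 2 gave 6, the highest values of Akr1b7 (80.4 CPM), Cdkn1a (71.6 CPM), Slc39a14 (438 CPM), and Aldh3b1 (3.02 CPM) and the lowest of Hsd17b7 (32.7 CPM) and Ighm (2.85 CPM). Replicate 3 gave the highest Mcm5 (18.9 CPM), Hat1 (16.1 CPM), Gstm3 (71.3 CPM), Ccna2 (2.25 CPM), and Gm3776 (0.192 CPM). Replicate 4 was the highest for Cyp2a5 (211 CPM) and Cyp2c54 (190 CPM) and the lowest for Sds (318 CPM). Replicate 5 was the highest for G6pdx (6.58 CPM) and Hmox1 (23.4 CPM). In wild-type mice, replicate 1 was the highest for Gstm2 (301 CPM) and the lowest for Cd4 (0.548 CPM), replicate 3 the highest for Tspan8 (2.12 CPM), and replicate 4 the highest for Acot1 (11.8 CPM).

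The genotype difference changed between vehicle and CDDO-Me, by the edgeR test of the difference of responses, for 32 of the genes named. On the log2 scale it widened in favour of wild-type mice by 5.33 for Cbr3, 3.27 for Gstm3, 2.78 for Nqo1, 2.45 for Gstm2-ps1, 2.43 for Akr1b8, 2.28 for Gstm1, 2.14 for Ces1g, and 2.04 for Srxn1. For Abcc4 it was 1.93, for Cbr1 1.80, for Gstm4 1.42, for Ces1b 1.38, for Ugdh 1.36, for Blvrb 1.35, for Gbe1 1.28, and for Aldh3b1 1.22. Smaller values were 1.13 for Ephx1, 1.11 for Gstm2, 1.09 for Slc48a1, 1.08 for Pgd, 0.87 for Ftl1, 0.85 for Entpd5, 0.85 for Txnrd1, 0.84 for Slc35d1, 0.80 for Srgap2, 0.69 for Esd, 0.65 for Cds2, and 0.58 for Gclm. The opposite sign was found for Etfbkmt at -1.81, Frmd8 at -1.41, Slc25a45 at -1.24, and Tomm40l at -1.03.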

How the results depend on the processing

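The 1315 calls became 1654 with DESeq2 and 1364 (577 higher) with upper-quartile scaling, and leaving out 1 mouse gave 975 to 1487 calls, with 403 to 751 lower. After vehicle 1462 calls became 954 with the Arntl set as a covariate, 2307 with no size threshold, and 949 to 2050 with 1 mouse left out, and upper-quartile scaling moved the higher share from 39.6% to 24.6%. The 40 genes with a difference of responses became 85 with DESeq2 and 28 to 43 with 1 mouse left out. Of 127 named genes called, 90 kept their direction and call under every alternative that tested them, and the cause of the other changes was not tested. Fits without the 3 libraries low in Arntl rest on 2 Nrf2-knockout mice.

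Reversals of sign, in genes without a call in the main fit, were as follows. With the Arntl set as a covariate the log2 difference was 0.34 for Cyp2b10, 0.02 for Cyp3a11, 0.14 for Cyp7a1, 1.55 for Dbp, 0.11 for Gstm5, and -0.06 for Hmox1. Without the libraries low in Arntl it was 0.35, 0.02, 0.15, 1.55, 0.12, and -0.06 for the same genes. Leaving out 1 mouse gave -0.62 to 0.05 for Cyp2b10, -0.33 to 0.01 for Cyp3a11, -0.37 to 0.19 for Cyp7a1, and -0.07 to 0.23 for Ighm.

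With the replicate number as a block 1245 genes were called after CDDO-Me, 1207 after vehicle, and 23 for the difference of responses. Same-numbered wild-type and Nrf2-knockout mice had correlations from -0.028 to 0.208 after CDDO-Me and from -0.161 to 0.184 after vehicle. Over all pairs of a wild-type and a Nrf2-knockout mouse after CDDO-Me the range was -0.314 to 0.213. There wild-type replicate 1 correlated at 0.099 with Nrf2-knockout replicate 2 and at 0.09 with replicate 1. These values cannot show whether same-numbered mice shared a date of isolation, which is not in the labels.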
